A study of Mus musculus with 16 samples.

Results

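The smooth muscle contractile genes described here are 10 genes chosen by symbol: the actins Acta2 and Actg2, the myosin regulatory light chain Myl9 and its kinase Mylk, the actin-binding genes Tagln, Cnn1, Tpm1, Tpm2 and Lmod1, and the intermediate filament gene Des. They were matched by Ensembl identifier among 29629 genes of a single-cell table and 47729 genes of a tendon table, and all 10 passed the filter on low counts among the 13372 and 14602 genes that were tested. The single-cell table covers mouse cells derived from iPSCs (induced pluripotent stem cells) that carry ScxGFP, a transgene in which regulatory sequence of the tendon gene Scx drives green fluorescent protein. The cells were first turned into mesoderm and were then sorted as live single cells either without TGF-β2 (T0) or after 3, 6 and 9 days of TGF-β2 (T3, T6 and T9). Each time point has 3 plates of 384 wells, and every group, T0 included, carries the transgene and was made through the same mesodermal step. The series has no culture without TGF-β2 at T3, T6 or T9, so days in culture and TGF-β2 cannot be told apart. The paper also digested T0 cells with trypsin alone and later cells with collagenase before trypsin, so digestion differs between T0 and the rest. The tendon table holds bulk RNA from the Achilles tendon of 2-week-old littermates, 2 wild-type samples (Wt) and 2 samples homozygous for loss of Scx (homoKO).

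In smooth muscle, force comes from myosin pulling on actin filaments made largely of the products of Acta2 and Actg2. Mylk phosphorylates the regulatory light chain encoded by Myl9, which switches the myosin on, while tropomyosins and calponin (Cnn1) sit along the actin filament, Lmod1 starts new filaments and desmin (Des) ties the filament network together. The same genes, Acta2 and Tagln above all, are widely used to recognise vascular smooth muscle, pericytes and myofibroblasts, and in many of these genes serum response factor (Srf) with its cofactors binds a DNA element called the CArG box. Tpm1, Tpm2 and Des are also made in skeletal muscle, so that in a dissected tendon they do not mark smooth muscle alone.

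The CArG box is printed here because it is the element the family is known to share. It was searched as CC, then 6 bases of A or T, then GG, on both strands from 250 bases before to 50 bases after the start of each gene in RefSeq promoters of GRCm38.p6. Of the 10 members, 8 had a promoter in that table, while Tagln and Actg2 had none. The exact box was in 1 of the 8, Myl9, and in 1.63% of 32851 promoters. With at most 1 G or C allowed among the 6 central bases it was in 2 of the 8, Acta2 and Myl9, and in 9.98% of all promoters. Both of these genes held 2 such boxes, as did 0.822% of all promoters. The 4 boxes are given in capitals in 30 bases of the strand on which each gene is read.
Acta2, 84 bases before the start, chr19:34255438-34255467, minus strand: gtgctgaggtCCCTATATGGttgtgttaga
Acta2, 34 bases before the start, chr19:34255388-34255417, minus strand: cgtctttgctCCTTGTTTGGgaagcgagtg
Myl9, 161 bases before the start, chr2:156775293-156775322, plus strand: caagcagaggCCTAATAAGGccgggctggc
Myl9, 99 bases before the start, chr2:156775355-156775384, plus strand: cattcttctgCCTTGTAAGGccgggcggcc
The distances count from the start that RefSeq gives. Both Acta2 windows lie in the first exon of a longer Acta2 transcript in the GENCODE annotation, and both Myl9 windows lie upstream of every annotated exon. A match describes the letters only, and the absence of a match in the other 6 says only that the box is not in this window.

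Across the 12 plates the cells held 1921125 to 4657093 UMIs (unique molecular identifiers, each a counted transcript molecule) per plate, and the median cells of T0, T3, T6 and T9 held 10175, 5703, 8794 and 7900 UMIs. Levels are UMIs per 1000000 UMIs (CPM) of the cells of a plate, scaled by TMM, a correction that aligns the bulk of the genes between libraries. The 5 plates with fewer reads outside genes (T3 plates 1 and 3, T6 plate 2, T9 plates 1 and 2) had 21.6% to 27.9% of their UMIs from mitochondrial genes, against 9.28% to 15.1% in the other 7, which include all T0 plates. All 12 plates use the same 384 well barcodes, which mark positions and not shared cells. No label says that the plates of a time point came from separate cultures, so p-values measure only the spread between these plates. Scx itself, low at T0 (6.40 to 10.5 CPM), stood at 608 to 807 CPM at T3, 443 to 724 at T6 and 152 to 287 at T9.

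The contractile genes were all higher after 9 days of TGF-β2 than before it, and in all members but Des and Lmod1 the larger part of the log2 difference had arisen by T6. At T9 against T0, 10 of 10 members were higher in edgeR's quasi-likelihood test at a Benjamini-Hochberg adjusted p under 0.05, and 0 were lower. Among all 13372 genes tested, 23.6% were higher and 21.6% were lower. The median log2 fold change of the members was 2.67, against -0.02 for all genes tested, and in each of the 10 the T9 plates lay above every T0 plate, as they did in 28.7% of all genes tested. The smallest difference was that of Tpm1, at 1.36, and the largest were those of Actg2 and Mylk, at 6.68 and 6.87, which started from almost no UMIs.

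**Figure D1:**
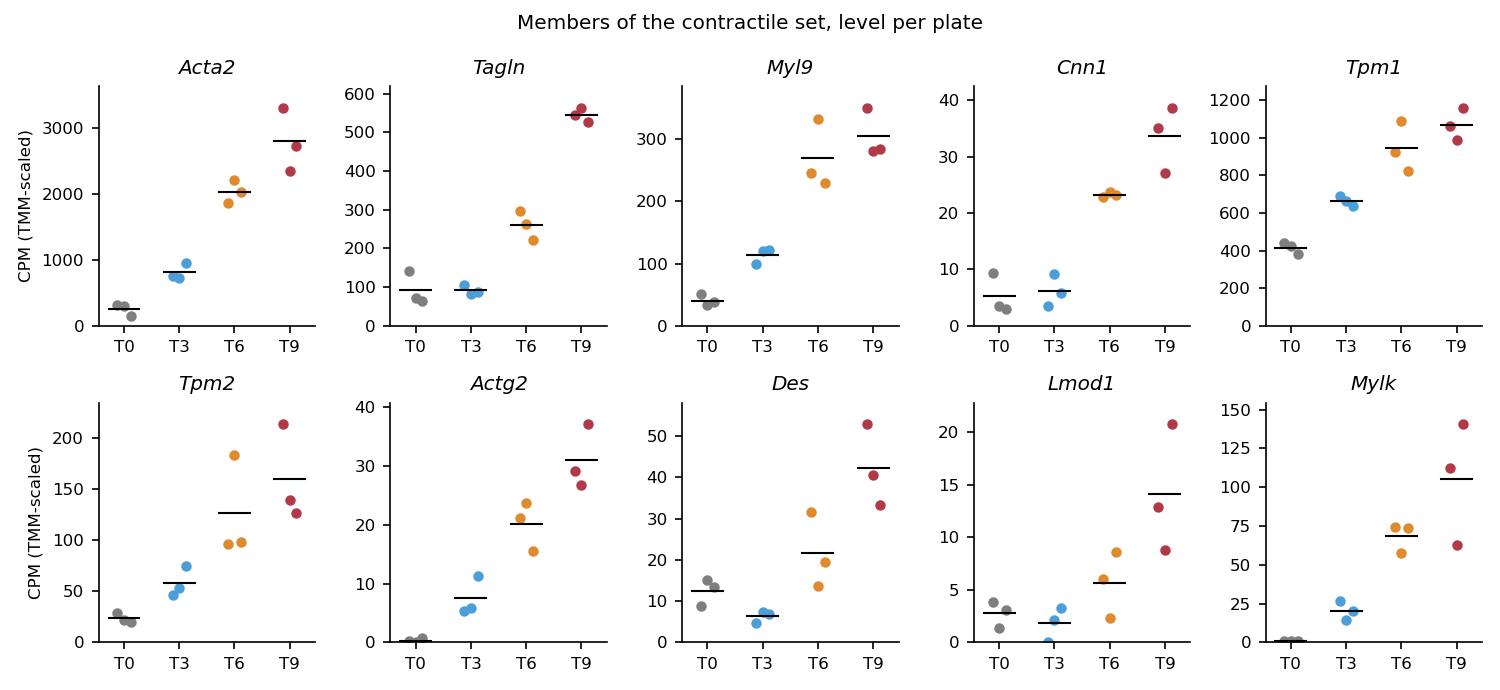
Level of each of the 10 members in every plate, as TMM-scaled CPM on an axis from 0, at T0, T3, T6 and T9. Points are the 3 plates of a time point and lines their means. Acta2 runs from 157 to 321 CPM at T0 to between 2354 and 3313 at T9, and the T9 points lie above the T0 points in every panel.

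Acta2, the smooth muscle α-actin, had the highest count of the 10 at T9. Its level was 321, 310 and 157 CPM in the T0 plates and 752, 725 and 960 CPM at T3. It was 1872, 2215 and 2035 CPM at T6 and 3313, 2354 and 2738 CPM at T9. No 2 time points overlapped, and the mean climbed from 263 ± 91.6 (SD, n = 3) to 812 ± 129, 2041 ± 172 and 2802 ± 483 CPM. Acta2 rose by 1.63 (SE 0.26) on the log2 scale from T0 to T3 (edgeR adjusted p = 0.00035) and by 1.33 (SE 0.26) from T3 to T6 (adjusted p = 0.0098). Without T3 plate 1 the latter stood at 1.28 and missed the threshold (adjusted p = 0.0523). From T6 to T9 the difference of 0.46 (SE 0.26) did not pass (adjusted p = 0.396). Acta2 made up 30.0% of the summed level of the 10 members at T0 and 54.7% at T9.

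Actg2, the γ-actin of visceral smooth muscle, was all but missing at T0, with 1, 0 and 3 UMIs in the 3 plates. A count of 0 in T0 plate 2 allows up to 0.60 CPM. The level was 5.32, 5.87 and 11.3 CPM at T3, 21.2, 23.7 and 15.5 CPM at T6 and 29.2, 26.7 and 37.0 CPM at T9. Each later time point lay above the one before it in all plates. With only 4 UMIs at T0 in all, the ratio of UMI shares to T0 is loosely held: 24.9 at T3 (95% interval 9.24 to 94.6) and 83.8 at T9 (32.3 to 310), counting error only. The T3 against T0 difference passed in edgeR (adjusted p = 4.56e-05), as did T6 against T3, by 1.39 (SE 0.36, adjusted p = 0.0458). The second call was lost without any 1 of the T3 or T6 plates but T3 plate 3 (adjusted p = 0.0638 to 0.158), with differences of 1.18 to 1.53.

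Myl9, the light chain, and Mylk, its kinase, moved in the same steps as Acta2. Myl9 was at 51.4, 33.0 and 37.9 CPM at T0 and at 98.6, 121 and 122 CPM at T3. It then stood at 245, 332 and 230 CPM at T6 and 350, 281 and 284 CPM at T9. The T6 and T9 plates overlapped. Myl9 rose by 1.48 (SE 0.21) from T0 to T3 (edgeR adjusted p = 0.000137) and by 1.24 (SE 0.21) from T3 to T6 (adjusted p = 0.00418), while T9 against T6 was 0.18 (SE 0.20, adjusted p = 0.691).

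Mylk stood at 0.70, 1.20 and 0.70 CPM at T0, from 13 UMIs in all. It reached 26.6, 14.5 and 20.02 CPM at T3, 74.5, 57.8 and 73.6 CPM at T6 and 112, 62.7 and 140 CPM at T9. T9 plate 2 fell within the T6 range, and otherwise the time points were separate. The ratio of UMI shares to T0 was 19.1 at T3 (95% interval 10.8 to 36.8) and 89.0 at T9 (51.8 to 168). By edgeR the steps were 4.47 (SE 0.43, adjusted p = 3.23e-06) from T0 to T3, 1.79 (SE 0.29, adjusted p = 0.00327) from T3 to T6 and 0.62 (SE 0.27, adjusted p = 0.277) from T6 to T9.

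Tagln, or transgelin, an actin-binding protein of smooth muscle, did not follow Acta2 in the first 3 days. Its plates held 142, 71.4 and 64.6 CPM at T0 and 106, 83.7 and 87.0 CPM at T3, with the T3 values inside the T0 range. It then stood at 297, 264 and 222 CPM at T6 and 544, 563 and 527 CPM at T9, each time point above the last. The log2 difference of T3 from T0 was -0.02 (SE 0.26, edgeR adjusted p = 0.967). Tagln rose by 1.51 (SE 0.26) from T3 to T6 (adjusted p = 0.00505), and the T9 against T6 difference of 1.06 (SE 0.25) came close to the threshold without passing (adjusted p = 0.0538). Tagln overlaps Pcsk7 and Gm48529 on the other strand.

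Cnn1, calponin, which marks differentiated smooth muscle, was sparse throughout. It was at 9.44, 3.60 and 3.04 CPM at T0 and at 3.54, 9.26 and 5.82 CPM at T3, which overlap. It was at 22.8, 23.7 and 23.3 CPM at T6 and 35.1, 27.2 and 38.6 CPM at T9, both above all earlier plates. The first step was 0.25 (SE 0.42, edgeR adjusted p = 0.678) and the step from T3 to T6 was 1.83 (SE 0.39, adjusted p = 0.0159). The call for the latter was lost without plate 1 or plate 3 of T3 or of T6 (adjusted p = 0.0542 to 0.0721). T0 plate 1 had the highest T0 level of every member but Actg2, Des and Mylk.

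The tropomyosins, which cover the myosin-binding face of actin, differed in where they started. Tpm1 was already at 441, 423 and 381 CPM at T0, and was at 689, 663 and 636 CPM at T3. It was at 923, 1087 and 823 CPM at T6 and 1060, 988 and 1158 CPM at T9. Tpm1 rose by 0.67 (SE 0.17) from T0 to T3 (edgeR adjusted p = 0.00788), and its T6 against T3 difference of 0.51 (SE 0.17) did not pass (adjusted p = 0.112), although all T6 plates lay above all T3 plates. Tpm2 was at 29.2, 22.4 and 19.9 CPM at T0 and at 46.1, 52.8 and 74.6 CPM at T3, and it rose by 1.28 (SE 0.30, adjusted p = 0.00502). At T6 it was at 96.6, 183 and 98.2 CPM, a further rise of 1.11 (SE 0.29, adjusted p = 0.0454), and at T9 at 213, 139 and 126 CPM, overlapping T6. The call for the rise to T6 was lost without any 1 of the T3 or T6 plates (adjusted p = 0.0544 to 0.183), though the difference stayed at 0.75 to 1.34.

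Des and Lmod1, like Tagln, did not start upward. Des, the muscle intermediate filament, was at 8.91, 15.0 and 13.3 CPM at T0 and at 4.72, 7.41 and 6.92 CPM at T3. All T3 plates lay below all T0 plates, but the difference of -0.92 (SE 0.36) did not pass (edgeR adjusted p = 0.0601). It passed as a fall in 3 of the alternatives, with no filter on low counts (adjusted p = 0.0182), with only the plates of these time points (0.0422) and without T0 plate 1 (0.0436). Des was then at 31.7, 13.6 and 19.5 CPM at T6, a rise of 1.74 (SE 0.35, adjusted p = 0.0113), and at 52.8, 40.5 and 33.2 CPM at T9, above T6 in all plates by 0.95 (SE 0.30, adjusted p = 0.137). The rise to T6 missed the threshold without T3 plate 1 (1.60, adjusted p = 0.0534) and without T6 plate 1 (1.33, adjusted p = 0.0603).

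Lmod1, leiomodin, was at 3.84, 1.40 and 3.04 CPM at T0 and at 0, 2.16 and 3.28 CPM at T3, where the 0 of plate 1 allows up to 1.77 CPM. It was at 6.05, 2.33 and 8.64 CPM at T6 and 12.9, 8.77 and 20.8 CPM at T9. Neighbouring time points overlapped until T9, whose plates lay above all others. Of the 10 members Lmod1 passed in no single step, and it passed at T9 against T0 by 2.35 (SE 0.59, edgeR adjusted p = 0.00516).

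**Figure D2:**
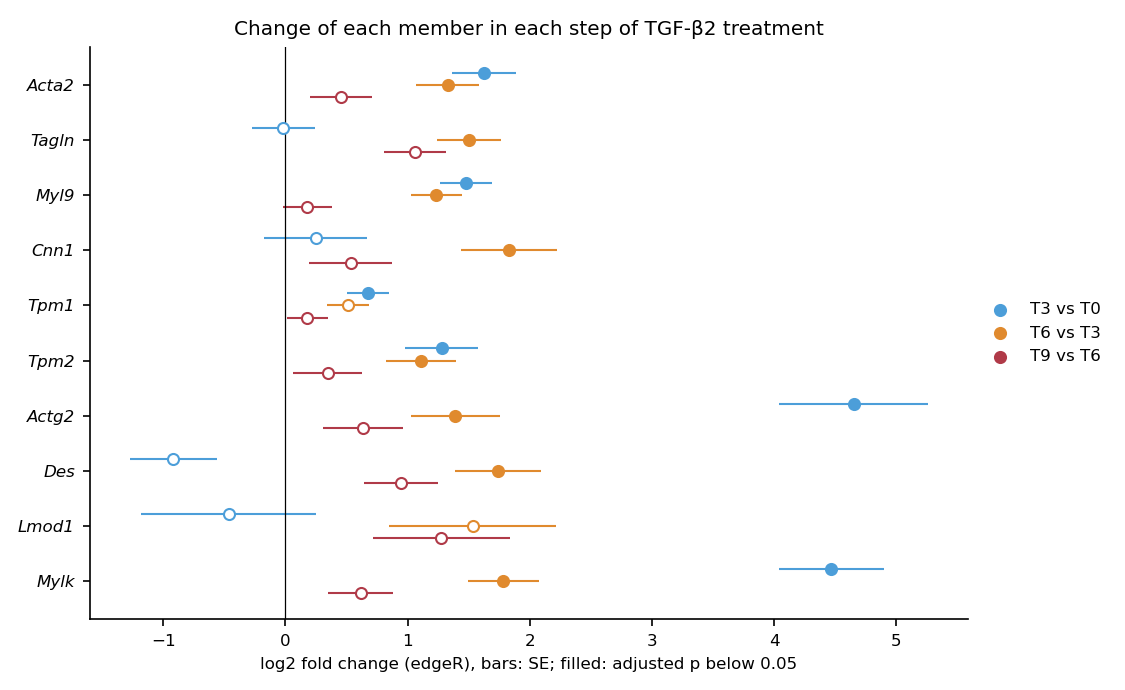
The log2 fold change of each member from edgeR in each step, T3 against T0, T6 against T3 and T9 against T6, with bars of 1 SE; filled points have an adjusted p under 0.05. In the first step the members run from -0.92 for Des to 4.65 for Actg2, in the second all 10 lie between 0.51 and 1.83, and in the last all 10 lie between 0.18 and 1.28 with no filled point.

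Counted by step, 6 members rose from T0 to T3 and 0 fell, where 17.0% of all genes were called higher and 16.2% lower. These 6 were Acta2, Actg2, Myl9, Mylk, Tpm1 and Tpm2, and the median of the 10 was 0.98 against 0.01 over all genes. From T3 to T6, 8 rose and 0 fell, where 2.61% of all genes were called higher and 1.63% lower. The 2 that did not pass were Tpm1 and Lmod1, and the median was 1.45 against 0.03 over all genes. Leaving out single plates brought this count to between 3 and 6, the lowest without T3 plate 1, 4 without T6 plate 1 and 5 without T6 plate 3. It was 5 with only the plates of the compared time points and 5 with library totals in place of TMM. The 567 calls over all genes fell as well, to 303 without T3 plate 1, 291 without T6 plate 1 and 300 without T6 plate 3. They fell to 264 with only the plates compared and 299 with library totals. Fold changes were positive for all 10 members in each of these fits.

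From T6 to T9, edgeR called 0 members, where 0.935% of all genes were called higher and 0.688% lower. All 10 differences were positive under TMM, but with library totals in its place, which shifted the median of all genes by -0.25, Myl9 (-0.04) and Tpm1 (-0.03) lay below 0. The median of the 10 was 0.58, against -0.01 over all genes, and in 6 members the T9 plates lay above every T6 plate, as they did in 8.41% of all genes tested. At an unadjusted p under 0.05 there were 4 members, Tagln, Des, Lmod1 and Mylk, with no share of all genes at that cut to set beside them. DESeq2 called 1, Tagln, by 1.08 (adjusted p = 0.00241). Tagln also passed without T6 plate 2 (adjusted p = 0.0491) and without T9 plate 3 (adjusted p = 0.0342).

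The mitochondrial share differed between time points, since the high side held no T0 plate and 2, 1 and 2 plates at T3, T6 and T9. Within the plates of lower mitochondrial share, all 10 members were higher at T9 than at T0, at T6 than at T3 and at T9 than at T6 (3, 1, 2 and 1 plates at T0, T3, T6 and T9). At T3 against T0 in these plates, Tagln (83.7 against 92.8 CPM), Des (7.41 against 12.4) and Lmod1 (2.16 against 2.76) were lower and the other members higher. Within the plates of higher share, all 10 were higher at T6 than at T3, and 7 of 10 were higher at T9 than at T6 (2, 1 and 2 plates at T3, T6 and T9). Acta2 averaged 263, 725, 1954 and 2738 CPM at T0, T3, T6 and T9 in the former and 856, 2215 and 2834 CPM at T3, T6 and T9 in the latter. With library totals in place of TMM, the median of all genes shifted by -0.21 for T3 against T0 and by -0.49 for T9 against T0. The calls over all genes then split as 1524 higher and 2369 lower, in place of 2279 and 2160, and as 1755 and 4468, in place of 3155 and 2895. The members called were then 5 and 10, with no change of direction, and Tpm1 was the member lost (adjusted p = 0.0985).

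The share of cells with a transcript was followed beside the levels. To compare shares across depths, each cell was thinned to 3000 UMIs and the cells below that were left out, which kept 322 to 375 cells a plate. After thinning, the share of cells with an Acta2 UMI was 23.7% ± 6.92 (SD, n = 3) in T0 and 48.9% ± 6.36 in T3 plates. It was 82.5% ± 3.09 in T6 and 77.9% ± 5.29 in T9 plates. Before thinning its shares were 43.1%, 57.3%, 92.2% and 91.4%. Its share at T9 did not exceed that at T6, while its CPM was higher, and the plates of the time points overlap in share, so no order between them is read from it.

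Tagln had a UMI in a mean of 12.9% of thinned cells in T0 plates and in 9.01% to 12.9% in the single T3 plates. Its means were 30.3% in T6 and 45.3% ± 0.999 in T9 plates, and the T9 plates lay above all others. Mylk went from 0.187% to 3.85%, 12.2% and 14.9%, and Actg2 from no cell to 1.75%, 3.92% and 4.06%. Cnn1, Actg2, Des and Lmod1 were each found in under 10% of the thinned cells of every plate at T9, with means of 5.41%, 4.06%, 7.02% and 2.45%. The mean number of members found in a thinned cell was 1.20, 1.74, 2.91 and 3.01 in the 4 time points, in that order. Thinned cells with none of the 10 made up 28.9% ± 5.25 at T0 and 2.87% ± 1.19 at T9, and cells with 4 or more 5.17% ± 3.47 and 34.5% ± 5.29.

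**Figure D3:**
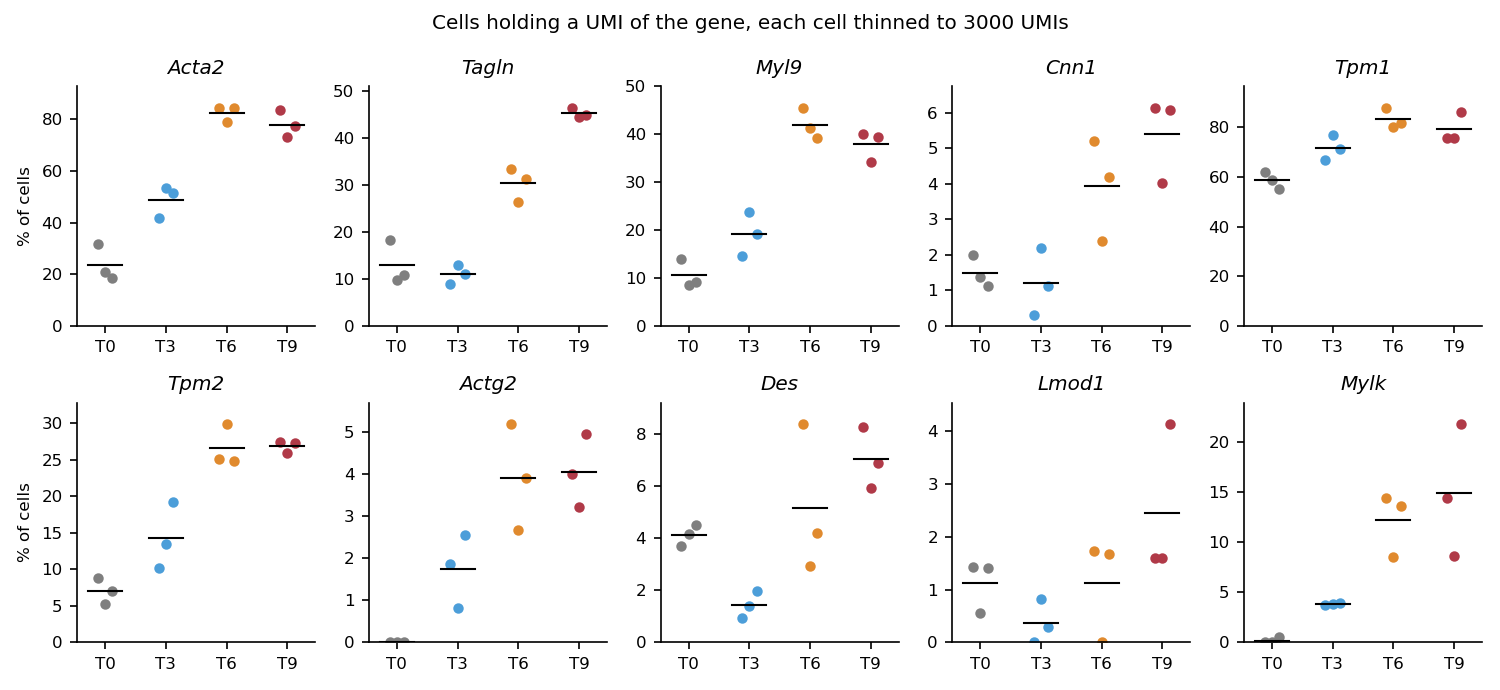
Percent of cells with at least 1 UMI of each member after thinning every cell to 3000 UMIs, per plate (points) with the mean of 3 plates (lines), on axes from 0 that differ between panels. Acta2 reaches 82.5% at T6 and Tagln 45.3% at T9, while Lmod1 stays at a mean of 2.45% at T9.

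Within a plate the UMIs of Acta2 were uneven. In T0 the 10% of thinned cells with the most Acta2 held 83.5% ± 5.20 of its UMIs, and in T9 it held 47.99% ± 1.17, the lowest mean being 40.4% ± 0.690 in T6. Median thinned cells held 0 Acta2 UMIs in all T0 plates, 3 in all T6 plates and 2 to 3 in T9, where the highest held 61 to 74. As a reference for free RNA, 91 cells with UMIs of at least 5 of 8 pluripotency genes, taken as cells not expected to express the contractile genes, were set apart, 63 at T0 and 28 later. In these Acta2 was found in 17.5% of thinned cells at T0 and 32.1% later, against 24.01% and 70.5% of the other cells, with median depths of 18192 and 18636 UMIs against 9940.5 and 7441. Tagln was found in 1.59% and 3.57% of them, against 13.6% and 29.5% of the other cells. By level over all UMIs, Acta2 stood at 43.8 CPM in the T0 cells set apart and 350 CPM in the other T0 cells, and at 182 and 1865 CPM later. The T0 shares were thus closer than the T0 levels.

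Across plates the members moved together, and across cells of a plate they did so weakly. Over the 12 plates, which share the time course and differ in depth, the 45 pairs had Pearson r of log2(CPM + 1) from 0.53 (Lmod1 with Mylk) to 0.98, with a median of 0.85. Acta2 was closest to Tpm1 and Myl9 (r = 0.977 for both) and farthest from Des and Lmod1 (0.612 and 0.599). When genes in and outside the set were ranked by r with Acta2, Tpm1 and Myl9 ranked 17 and 18, Tpm2 32, Mylk 36 and Actg2 98. Cnn1 ranked 636, Tagln 826, Des 2683 and Lmod1 2778, so many genes outside the 10 were closer to Acta2. Within T9 plates, over thinned cells, the 45 pairs averaged -0.01 to 0.36, the highest being Acta2 with Tagln (0.36) and Acta2 with Myl9 (0.34). Acta2 with Des stood at 0.01. In counts this sparse a low r says little. The 5 genes outside the 10 whose levels over the 12 plates were most like Acta2 were Sgms1 (r = 0.991), Creb3l1 (0.991), Tubb2a (0.989), Cd55 (0.985) and Aspn (0.985).

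The wider contractile and actin genes did not move as a block. The list of 32 other such genes, 31 of them tested, had 6 higher and 7 lower at T3 against T0, where 17.0% of all genes were called higher and 16.2% lower. It had 3 higher and 0 lower at T6 against T3 (2.61% and 1.63% of all genes). At T9 against T6 it had 1 higher and 0 lower (0.935% and 0.688%). At T9 against T0, 23.6% of all genes were called higher and 21.6% lower. Of the list, 12 were higher and 3 lower, with a median of 0.24 against 2.67 for the 10 members. The largest of those with separate plates were Myh11, the smooth muscle myosin heavy chain (5.26), the Z-line protein Pdlim3 (2.92), the LIM protein Csrp1 (2.11) and vimentin, Vim (1.79). Myh11 was sparse, at 1.22, 0 and 0 CPM at T0 and 17.7, 11.3 and 26.8 CPM at T9. The cytoplasmic actin Actb was lower at T9 by 0.51 (edgeR adjusted p = 0.0415), so the actins did not change alike.

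Among 24 regulators of the contractile programme, 8 were higher and 6 lower at T9 against T0, with a median of 0.17. Of all genes tested, 23.6% were higher and 21.6% lower. Heyl, a Notch target, was higher by 6.02 from 1 UMI at T0, and Klf4 by 2.47, Mef2c by 2.19 and the coactivator Wwtr1 by 1.69. Tbx18, a factor of mural progenitors, was lower by 2.61 on the log2 scale. Myocd, the smooth muscle coactivator of Srf, was higher by 2.33 (edgeR adjusted p = 0.0222) on 10 UMIs at T0 and 30 at T9, and its plates overlapped. In the last 2 steps, T6 against T3 and T9 against T6, edgeR called 0 of the 24, with 5 and 2 at an unadjusted p under 0.05, and DESeq2 called 1 and 0.

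Markers of other cells that carry these genes moved with them, and their part in the levels was not tested. Of 12 mural cell markers (pericytes and vascular smooth muscle), 10 were tested and 7 were higher at T9 against T0, as were 23.6% of all genes. Their summed level was 119 to 124 CPM at T0, 160 to 224 at T3, 474 to 573 at T6 and 983 to 1507 at T9. Most of it was Ndufa4l2, at 993 CPM over the T9 plates together, while the pericyte channel gene Kcnj8 was at 0 UMIs at T0 and 40 at T9. Matrix-producing myofibroblast markers were higher for 10 of 11 tested, led by Lox (9.40) and Postn (8.99), with sums of 1333 to 1565 CPM at T0 and 16043 to 21277 CPM at T9. Tenocyte markers were higher for 10 of 10. Skeletal muscle markers stayed low, at 31.4 to 73.7 CPM in sum at T0 and 33.5 to 212 CPM at T9, with 1 of 4 tested higher (Pygm, 2.35).

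The study follows cells by their Scx transcripts, and the contractile genes were compared between cells with at least 1 Scx UMI (Scx+) and the rest (Scx-) of the same plate, with the plate as a block. Scx+ cells had the higher median depth in every plate, at 7043 against 7013 UMIs in T3 plate 3 and 10909 against 7874.5 in T6 plate 3. Scx- thus means that no Scx UMI was found at the depth of the cell. At T3, 2 members were lower in Scx+ cells and 0 were higher, where 0.413% of 11858 genes were called lower and 0.371% higher. Acta2 was at 720, 897 and 1469 CPM in the Scx- cells of the 3 plates and 723, 672 and 815 CPM in the Scx+ cells, a log2 difference of -0.44 (SE 0.11, edgeR adjusted p = 0.0487). It was the same within 3 CPM in plate 1 and lower in Scx+ cells in plates 2 and 3. Tagln was at 149, 173 and 220 CPM in Scx- and 88.5, 64.4 and 59.0 CPM in Scx+ cells, lower in all 3 plates, by -1.39 (SE 0.21, adjusted p = 0.00142).

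The 2 calls at T3 rest on plate 3 in part. Without it Acta2 was at -0.21 (edgeR adjusted p = 0.53) and Tagln at -1.11 (adjusted p = 0.0613), and without plate 2 Acta2 was at -0.45 (adjusted p = 0.16). At T3, 9 members were below 0 and Tpm2 was at -0.00, with a median of -0.43 against 0.03 over all genes tested. Scx- cells at T3 were few, 61 to 94 a plate, against 290 to 322 Scx+ cells. Pluripotency genes were also lower in Scx+ cells, 4 of 6 tested (Dppa5a, Nanog, Sox2 and Utf1), as were 1 mural cell marker, Ndufa4l2, by -0.79 (adjusted p = 0.0209), and 1 of the other contractile and actin genes, Tagln2, by -1.42 (adjusted p = 0.0196). Their part in the difference was not tested.

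At T6 edgeR called 0 members, where 0.320% of genes were called higher and 0.194% lower. DESeq2 called 0 too, and 2 members, Acta2 and Myl9, had an unadjusted p under 0.05. The 10 differences lay between -0.31 and 0.44, with 5 above and 5 below 0. At T9, 1 member was higher and 0 were lower in Scx+ cells, where 0.354% of genes were called higher and 0.0506% lower. Acta2 was at 2740, 1982 and 2252 CPM in Scx- and 3558, 2708 and 3131 CPM in Scx+ cells, higher in 3 of 3 plates, by 0.43 (SE 0.10, adjusted p = 0.0435). That call was lost when the cells were thinned to 3000 UMIs (0.19, adjusted p = 0.395). Without any 1 of the 3 plates it was lost too, though the difference stayed at 0.41 to 0.47 (adjusted p = 0.278 to 0.378). Tagln was at 453, 466 and 428 CPM in Scx- and 581, 664 and 611 CPM in Scx+ cells, higher in 3 of 3 plates, but the difference of 0.46 (SE 0.15) did not pass (adjusted p = 0.361).

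The difference between the effects at T3 and T9 was itself tested in the same model, which does not test either sign. Scx- cells were the smaller group at T3 but the larger at T9, with 204, 253 and 243 cells in T9 plates 1, 2 and 3 against 178, 128 and 141 Scx+ cells. The 2 splits thus do not divide the cells alike. For 2 members it passed in the direction of a higher effect at T9 and for 0 in the other, where 0.0759% and 0.0169% of genes did. It was 0.87 (SE 0.14, edgeR adjusted p = 0.00969) for Acta2 and 1.85 (SE 0.26, adjusted p = 0.00361) for Tagln. Without T3 plate 3 these were 0.64 (adjusted p = 0.0544) and 1.57 (adjusted p = 0.0504). All 10 members had a positive difference, and 6 had an unadjusted p under 0.05. The mural marker Ndufa4l2 passed in the same direction, by 1.1 (adjusted p = 0.0138). The other mural cell markers were not called and went both ways. Rgs4 (3.05), Rgs5 (1.55) and Pdgfrb (0.30) had a positive difference. Cspg4 (-1.29), Notch3 (-0.43) and Mcam (-0.38) had a negative one, as did Abcc9 (-5.01, SE 13.0) and Myh11 (-4.41, SE 15.5).

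**Figure D4:**
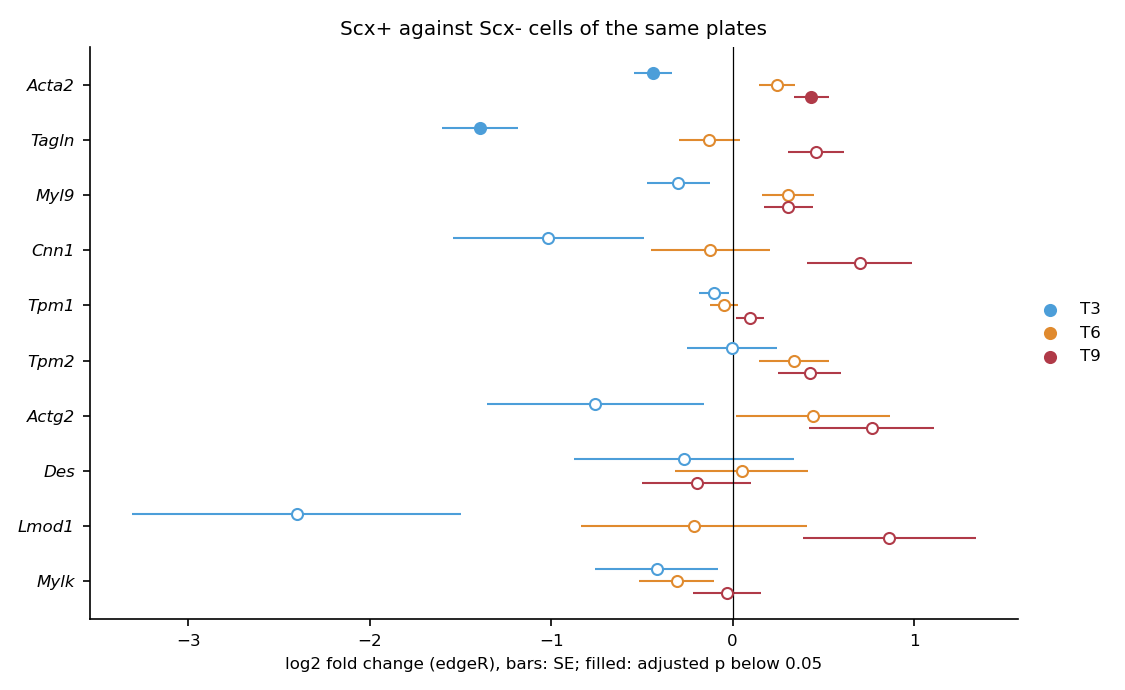
The log2 fold change of each member from edgeR between Scx+ and Scx- cells of the same plates at T3, T6 and T9, with bars of 1 SE; filled points have an adjusted p under 0.05. At T3 every point but that of Tpm2, at -0.00, lies below 0, with Acta2 at -0.44 and Tagln at -1.39 filled, and at T9 8 of 10 lie above it, with Acta2 at 0.43 filled.

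Cells with a UMI of Tnmd, the late tendon gene that encodes tenomodulin, were compared with the rest at T9 in the same way. Only 36 to 74 cells a plate were Tnmd+. EdgeR called 0 members, where 0.733% of genes were called higher and 0.317% lower, DESeq2 called 0, and 3 had an unadjusted p under 0.05. Tpm2 was at 135, 115 and 105 CPM in Tnmd- and 330, 134 and 150 CPM in Tnmd+ cells (log2 difference 0.76, SE 0.18, adjusted p = 0.0675). Mylk was at 98.4, 58.1 and 133 CPM in Tnmd- and 72.4, 16.8 and 36.8 CPM in Tnmd+ cells (-1.13, SE 0.27, adjusted p = 0.0598), from 6 to 50 UMIs a plate in the Tnmd+ cells. Actg2, the other of the 3, differed by 1.1 (SE 0.39, adjusted p = 0.328), and its Tnmd+ level was higher in plates 1 and 3 and lower in plate 2. These values turned on single plates. In edgeR Mylk passed at -1.84 without plate 1 (adjusted p = 0.0112), Tpm2 at 0.98 and Actg2 at 1.59 without plate 2 (adjusted p = 0.00196 and 0.00741), and Tpm2 at 0.87 without plate 3 (adjusted p = 0.0159). Acta2 was at 2689, 2025 and 2301 CPM in Tnmd- and 2930, 1720 and 3028 CPM in Tnmd+ cells, with no common direction.

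In the Achilles tendon Acta2 and Mylk were lower in homoKO and the other 8 members were not called. The 4 libraries held 11188270 to 12398560 reads in genes. Scx itself was at 97.8 and 83.1 CPM in Wt and 23.0 and 26.1 CPM in homoKO, a log2 difference of -1.88 (edgeR adjusted p = 0.000429), so that reads over the gene remained. The span of Scx lies within that of Bop1 on the other strand, and whether the counting used strand is not given in the sources used here. In this bulk tissue fewer cells of a type and less RNA per cell cannot be told apart. EdgeR called 2 members lower, Acta2 and Mylk, and 0 higher in homoKO, where 2.07% of 14602 genes were called lower and 1.77% higher. Of the 10 members, 7 had both homoKO samples below both Wt samples and 3 had them above, as did 24.9% and 24.4% of all genes tested. The median of the 10 was -1.13, against -0.00 over all genes.

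Acta2 was at 501 and 343 CPM in Wt and 240 and 154 CPM in homoKO, a difference of -1.1 (SE 0.25, edgeR adjusted p = 0.0447). The call depended on the libraries, as it was lost without Wt sample 1 (-0.80, adjusted p = 0.108), without homoKO sample 2 (-0.81, adjusted p = 0.129) and with library totals in place of TMM (-1.15, adjusted p = 0.0716). Mylk was at 198 and 174 CPM in Wt and 78.3 and 87.7 CPM in homoKO, a difference of -1.16 (SE 0.16, adjusted p = 0.00354), and it kept its call under every alternative tried. Mylk is overlapped by 3 antisense genes.

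The other 5 members that were lower in both homoKO samples did not pass, but the calls turned on single libraries. Without Wt sample 2, 4 of them passed, Tagln (adjusted p = 0.00184), Actg2 (0.00841), Cnn1 (0.0135) and Lmod1 (0.0462), and without homoKO sample 1 Tagln (0.0328) and Cnn1 (0.0383) did, by edgeR. Tagln was at 236 and 98.9 CPM in Wt and 76.8 and 40.3 CPM in homoKO (-1.51, SE 0.39, edgeR adjusted p = 0.0697). Cnn1 was at 16.4 and 3.84 CPM in Wt and 2.33 and 0.35 CPM in homoKO (-2.89, SE 0.83, adjusted p = 0.101). Actg2 was at 21.9 and 4.17 CPM in Wt and 3.85 and 0.97 CPM in homoKO (-2.42, SE 0.78, adjusted p = 0.139). Wt sample 1 was 4.27 times Wt sample 2 for Cnn1 and 5.25 times for Actg2, and homoKO sample 1 was 6.59 and 3.97 times homoKO sample 2. Lmod1 was at 17.0 and 7.26 CPM in Wt and 6.34 and 3.18 CPM in homoKO (-1.34, SE 0.48, adjusted p = 0.182), and Myl9 at 189 and 148 CPM and 146 and 93.9 CPM (-0.49, SE 0.22, adjusted p = 0.298). Myh11 followed the same order of samples, at 172, 58.3, 42.3 and 23.1 CPM (-1.81, adjusted p = 0.0573). In all of these the order was Wt sample 1, Wt sample 2, homoKO sample 1, homoKO sample 2, as for Acta2.

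The 3 members that skeletal muscle shares had both homoKO samples above both Wt samples, without passing in the main edgeR fit. Des was at 1789 and 1921 CPM in Wt and 3075 and 3145 CPM in homoKO (0.75, SE 0.22, edgeR adjusted p = 0.103). Tpm1 was at 4262 and 7245 CPM in Wt and 7718 and 8520 CPM in homoKO (0.50, SE 0.30, adjusted p = 0.449), and Tpm2 at 4840 and 6163 CPM and 7831 and 8153 CPM (0.54, SE 0.25, adjusted p = 0.317). With DESeq2 Des (adjusted p = 2.33e-05) and Tpm2 (0.025) passed as higher, and Cnn1 (0.00733) passed as lower. With no filter on low counts Des passed in edgeR (adjusted p = 0.0178), as did Tagln, Cnn1, Actg2 and Lmod1 as lower. Without Wt sample 2 the differences were 0.80 for Des, 0.93 for Tpm1 and 0.72 for Tpm2. Per 1000 bases of exon, where genes can be compared, Tpm2 was at 1891 ± 322 (SD, n = 2) and Tpm1 at 887 ± 325 CPM in Wt, against 494 ± 24.9 for Des, 192 ± 50.8 for Acta2 and 3.70 ± 3.25 for Cnn1. Acta1, the skeletal muscle actin, was at 11907 ± 2849 on that scale.

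Skeletal muscle markers moved with these 3. All 25 had reads in all 4 samples and together held 49512 and 94485 CPM in Wt and 116315 and 128556 CPM in homoKO, with a median difference of 0.72, and 4 were called higher, Myog (1.75), Myh8 (1.28), Myod1 (1.05) and Xirp2 (0.87). Muscle in the dissected tendon and the genotype cannot be told apart for Des, Tpm1 and Tpm2. Acta1 ran in the reverse of the sample order given for Acta2. It was at 15194 and 21384 CPM in Wt samples 1 and 2 and at 26341 and 27852 CPM in homoKO samples 1 and 2. The part of muscle content in the members lower in homoKO, Acta2 included, was not tested. With the 25 muscle genes left out before scaling, the same 2 members were called, and 562 genes in all in place of 560. Other muscle RNA stayed in the libraries, so this does not measure the part of muscle content. Of the 12 mural cell markers edgeR called 0, with 8 at an unadjusted p under 0.05, and DESeq2 called 2, both lower. These markers had a median of -0.46 and sums of 1621 and 1454 CPM in Wt and 1150 and 1099 CPM in homoKO, lower in both homoKO samples. Endothelial markers were also lower, at 1075 to 1090 CPM in sum in Wt and 667 to 812 CPM in homoKO, with 2 of 10 called lower. Markers of matrix-producing myofibroblasts went the other way in sum, at 9092 to 12776 CPM in Wt and 22447 to 27517 CPM in homoKO, with 4 of 12 called higher and 1 lower. Of all genes tested in the tendon, 1.77% were called higher and 2.07% lower. The part of the cells that carry these markers in the Acta2 and Mylk differences was not tested.

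**Figure D5:**
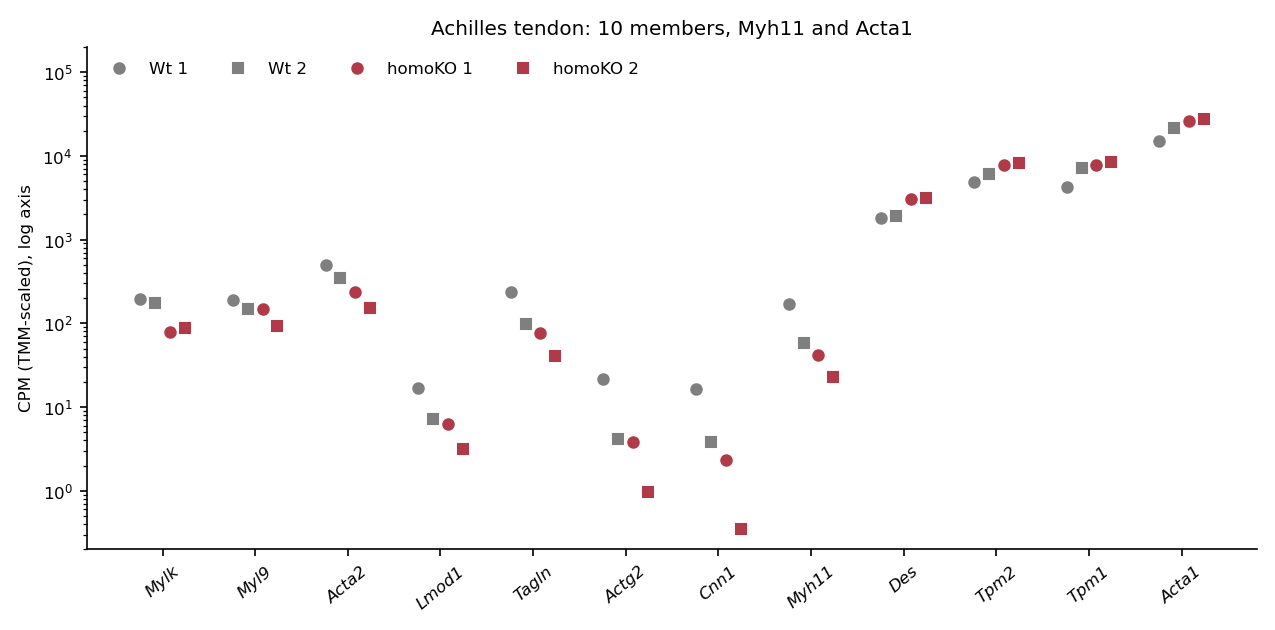
TMM-scaled CPM on a log axis in the 4 Achilles tendon samples for the 10 members, Myh11 and the skeletal muscle actin Acta1. Grey marks are Wt and red marks homoKO, with circles for sample 1 and squares for sample 2. From Mylk to Myh11 both red marks lie below both grey marks, and from Des to Acta1 above them.

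Of the 32 other contractile and actin genes, 3 were higher and 3 lower in homoKO, with a median of -0.01. Over all genes tested in the tendon, 1.77% were higher and 2.07% lower. The tropomyosin Tpm3 was at 611 and 308 CPM in Wt and 78.6 and 66.8 CPM in homoKO (-2.66, edgeR adjusted p = 0.00134). Cald1, caldesmon, was at 201 and 186 CPM and 117 and 104 CPM (-0.81, adjusted p = 0.0202). The LIM protein Csrp2 was at 28.7 and 23.9 CPM and 129 and 106 CPM (2.16, adjusted p = 0.000262), and Pdlim3 was higher by 1.19 (adjusted p = 0.0223). Of the 24 regulators 1 was called, Tead3, higher by 0.97 (adjusted p = 0.0222). Srf was at 75.0 and 89.7 CPM in Wt and 82.9 and 87.8 CPM in homoKO, which overlap.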

How the data were processed

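ScxGFP iPSC-derived cells were sorted into plates at T0, T3, T6 and T9 (3 plates each), and bulk RNA came from 2 Wt and 2 homoKO Achilles tendons. The authors trimmed the reads, aligned them to GRCm38 with HISAT2 (2.2.1 for cells, 2.0.4 for bulk, per the submitters' notes) and counted with featureCounts (1.5.0 for bulk) and UMI-tools 1.0.1. Both deposited tables hold raw counts, UMI counts per gene and well and read counts per gene and tendon sample, without normalization. The annotation release is not given in the sources used here. Symbols, positions and exon lengths were taken from GENCODE vM21 and matched 29528 of 29629 and 47224 of 47729 identifiers.

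Cells with at least 200 genes were kept, 4594 of 4608 wells, also when only genes found in more than 3 cells were counted, which is the filter the study states and a few more cells than it gives, and 3 rows that are no mouse gene (0.0642% of UMIs) were left out. Counts were summed per plate and tested in edgeR 4.0.16 (R 4.3.3; filterByExpr, TMM, quasi-likelihood test, Benjamini-Hochberg over all genes tested, threshold 0.05), with all 12 plates in 1 fit and the tendon samples in another. TMM factors ran from 0.738 to 1.24 for plates and from 0.963 to 1.05 for tendons. Scx+ and Tnmd+ cells were compared within plates, with the plate as a block, and the gene that divided the cells was left out. CPM in these sums is scaled within that fit. The steps were tested on simulated data. No 2 libraries agreed within sampling noise: chi-square per gene was at least 3.18 between plates of a time point and 22.4 between tendons. Intervals are exact at 95% and cover counting error only, as does the limit of 3 counts for a count of 0. Counts at an unadjusted p under 0.05 stand without the share of all genes at that cut and are not read as results. Doublets were not called, since wells were sorted as singlets.

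The genes named are the 10 members, Scx and Tnmd, from each list up to 4 called genes with the largest fold change and separate groups in T9 against T0 and in homoKO against Wt, any tested regulator, and the 5 genes most like Acta2. Actb, Myh11 and Srf in the tendon and the pluripotency genes, the mural cell and matrix-producing myofibroblast markers and Tagln2 in Scx+ cells were named after their values were seen. The members and lists were chosen with earlier results of these data known. The alternatives were DESeq2 1.42.0, its size factors, single libraries left out, no filter on low counts, a fit of only the plates compared, the library split as a covariate, a replicate block, at least 1000 genes a cell, thinned cells and a cut of 2 UMIs for Scx or Tnmd. Leaving out mitochondrial or skeletal muscle genes and library totals in place of TMM were added after seeing the data. Python 3.11.15, numpy 2.4.6, pandas 2.3.3, scipy 1.17.1 and matplotlib 3.10.9 were used for levels and figures.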

Additional observations from a re-analysis of the deposited data

Results flagged for a closer look

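Of the 10 contractile genes, 2 differed between time points in how Scx+ and Scx- cells of a plate compared. Scx- cells numbered 61 to 94 a plate at T3 and 204 to 253 at T9. For Acta2 the log2 difference of Scx+ from Scx- cells was -0.44 at T3 and 0.43 at T9, and the difference between both, 0.87, passed in edgeR (adjusted p = 0.00969). For Tagln it was -1.39 at T3 and 0.46 at T9, and the difference between both, 1.85, passed (adjusted p = 0.00361). Without T3 plate 3 both missed the threshold, at 0.64 (adjusted p = 0.0544) and 1.57 (adjusted p = 0.0504). The matrix-producing myofibroblast markers Col3a1, Fn1 and Lox were called higher in Scx+ cells at T3, where 0.371% of all genes were. At T3 pluripotency genes were lower in Scx+ cells, 4 of 6 tested, where 0.413% of all genes were called lower. At T9 edgeR called 0 of the 6, with 2 at an unadjusted p under 0.05, and DESeq2 called 0. The mural cell marker Ndufa4l2 was lower in Scx+ cells at T3 too (-0.79, edgeR adjusted p = 0.0209), with a T9 to T3 difference of 1.1 (adjusted p = 0.0138). The other mural cell markers were not called. Their T9 to T3 differences were positive for Rgs4, Rgs5 and Pdgfrb and negative for Cspg4, Notch3, Mcam, Abcc9 and Myh11. The part of these genes in the difference was not tested.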

How the results depend on the processing

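The counts at T3 against T0 (6 members) and T9 against T0 (10) stayed within 1.5 times under every alternative, at 6 to 7 and 10 to 10 with single plates left out. At T6 against T3 the 8 members became 5 with only the plates compared, 5 with library totals in place of TMM and 3 to 6 with single plates left out, and 6 with the replicate block, where Tpm2 and Actg2 missed the threshold. At T9 against T6 the count of 0 became 1 with DESeq2, with its size factors, with the replicate block and without mitochondrial genes (Tagln each time), 2 with no filter on low counts (Tagln and Des) and 2 with the library split as covariate (Tagln and Lmod1), and 0 to 1 with single plates left out. In the tendon the 2 became 5 with DESeq2 (3 lower, 2 higher), 7 with no filter, 7 with the replicate block, 1 with library totals and 1 to 9 with single samples left out, 9 without Wt sample 2, 4 without homoKO sample 1 and 1 without homoKO sample 2. The calls over all genes moved too. At T6 against T3 the 567 became 264 with only the plates compared, 299 with library totals and 404 with the replicate block. At T9 against T6 the 217 became 558 with DESeq2, 684 with no filter, 813 with the library split as covariate and 113 with the replicate block. In the tendon the 560 became 753 with DESeq2, 1415 with no filter, 1108 with the replicate block and 442 with library totals. Same-numbered libraries did not deviate together (r from -0.563 to 0.515 between plates and 0.0715 between tendons), so the numbers do not pair them.

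Between Scx+ and Scx- cells at T3 the 2 became 4 in thinned cells, 0 with no replicate block and 0 to 2 with single plates left out. At T6 the 0 became 1 with no filter (0 to 0 with plates left out), and at T9 the 1 became 2 with no filter, 0 in thinned cells, 0 with no replicate block and 0 to 0 with plates left out. The difference between T9 and T3 went from 2 to 0 with no replicate block and 0 to 2 with plates left out. Between Tnmd+ and Tnmd- cells the 0 became 2 with no filter, 2 with a cut of 2 UMIs and 1 to 2 with plates left out. With that cut Des reversed, from 0.10 to -2.93 (adjusted p = 0.00339). Over all genes the 93 Scx calls at T3 became 130 in thinned cells and 0 with no replicate block. At T6 the 61 became 271 with no filter. At T9 the 48 became 128 with no filter, 63 in thinned cells and 3 with no replicate block. The 106 Tnmd calls became 210 with no filter and 244 with a cut of 2 UMIs. The median share of T9 cells with a UMI of a member was 37.1%, 20.9% in thinned cells and 19.2% at 2 or more UMIs. Of 1203 values of single members under the alternatives, 1106 kept their direction and side of the threshold. The cause of these changes was not tested. With 2 or 3 libraries a group and under 60 UMIs of Actg2 at T3, small differences could not be seen at this depth.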
